A study of Mus musculus with 6 samples.

Results

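The genes described here are 9 genes linked to glucocorticoid action, namely Tsc22d3, Fkbp5, Zbtb16, Klf9, Ddit4, Sgk1, Mt1, Mt2 and Nr3c1, chosen by symbol from a table of 16759 genes measured in mouse hind leg muscle. All 9 were in the table, and all 9 were among the 10883 genes that reached an average of 1 FPKM and were tested. In the table they carry the gene identifiers 14605 (Tsc22d3), 14229 (Fkbp5), 235320 (Zbtb16), 16601 (Klf9), 74747 (Ddit4), 20393 (Sgk1), 17748 (Mt1), 17750 (Mt2) and 14815 (Nr3c1), without positions. The muscle came from male C57BL/6J mice that were 8 weeks old at the start. The control (Con) group was 3 mice that had no treadmill training. The exercise (EX) group was 3 mice that ran 60 min per session in 5 weekly treadmill sessions for 6 weeks, in the evening after lights off, with 22 km run by each mouse. EX mice were killed 24 h after training ended. No other treatment or allele is named for either group. The mice were perfused with saline, fat between the muscles was removed, and the sources used here name neither the single muscles taken nor the hour at which Con mice were killed. Each mouse gave 1 library, and the libraries held 13845361 to 16240420 counts.

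Glucocorticoids are adrenal steroid hormones that enter cells and bind the glucocorticoid receptor, the product of Nr3c1. The bound receptor leaves its chaperones, moves to the nucleus and binds DNA at glucocorticoid response elements, paired half-sites read by a receptor dimer, near genes that it activates. In skeletal muscle the hormones are best known for a catabolic action, in which they raise genes that slow growth signalling through mTOR and genes that mark proteins for breakdown. Fkbp5, Tsc22d3, Zbtb16 and Klf9 are widely used as readouts of the active receptor, whereas Ddit4, Sgk1, Mt1 and Mt2 also answer to other signals such as energy stress, insulin or metals.

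Promoter sequences were taken from RefSeq (GRCm38.p6), where a window runs from 250 bases before to 50 bases after a transcription start. A window was found for 7 of the 9 genes, with 14 windows in all because Tsc22d3 has 3 listed starts and Sgk1 has 6. Zbtb16 and Nr3c1 had no entry. The palindromic glucocorticoid response element, searched as the half-site AGAACA followed after 3 free bases by its reverse complement TGTTCT, was present in 3 of 32851 windows of all genes, or 0.00913%. One of these windows belonged to Sgk1. It is shown because it is the window among the 14 with the full palindrome, which is in capitals and begins at position -189 from the start.
Sgk1, start 5 of 6, chr10:21993640-21993889, plus strand: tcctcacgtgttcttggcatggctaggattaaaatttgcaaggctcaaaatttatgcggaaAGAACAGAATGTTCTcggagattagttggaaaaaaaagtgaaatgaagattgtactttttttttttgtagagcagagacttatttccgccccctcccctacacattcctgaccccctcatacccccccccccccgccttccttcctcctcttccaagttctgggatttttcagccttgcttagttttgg
The counts are per gene, so the starts of Sgk1 in use could not be told apart. The half-site alone, AGAACA on either strand and so also counted within the palindrome, was in 3 of the 6 Sgk1 windows and in 1 of the 3 Tsc22d3 windows. It had no match in the windows of Fkbp5, Klf9, Ddit4, Mt1 and Mt2. Among all windows 19.0% held it.

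Mt1 and Mt2 encode metallothioneins, small cysteine-rich proteins that bind zinc and copper, and their windows lie 6471 bases apart on chromosome 8. They are shown for TGCNCNC on either strand, a loose pattern for the core of the metal response element, which is in capitals. A match is not by itself a bound site. Metal response elements are bound by the zinc sensor MTF1.
Mt1, chr8:94178839-94179088, plus strand: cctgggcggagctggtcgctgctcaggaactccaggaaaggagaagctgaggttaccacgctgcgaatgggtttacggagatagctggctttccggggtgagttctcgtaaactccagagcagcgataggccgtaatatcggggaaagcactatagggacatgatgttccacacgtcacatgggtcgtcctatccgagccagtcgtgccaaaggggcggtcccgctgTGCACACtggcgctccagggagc
Mt2, chr8:94172368-94172617, plus strand: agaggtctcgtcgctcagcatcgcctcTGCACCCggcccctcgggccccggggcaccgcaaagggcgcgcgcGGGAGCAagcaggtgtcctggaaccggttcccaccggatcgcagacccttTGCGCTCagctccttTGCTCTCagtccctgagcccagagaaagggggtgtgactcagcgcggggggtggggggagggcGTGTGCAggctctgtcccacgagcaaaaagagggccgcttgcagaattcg
The printed part is the 250 bases before the start, with 1 match in Mt1 and 5 in Mt2, and over the whole windows there were 3 matches in Mt1 and 6 in Mt2. At least 1 match was present in 51.0% of all windows and at least 4 in 2.30%. Neither motif had a match in the window of Klf9. The metal core matched once in that of Fkbp5, at 2 places in that of Ddit4, once in 1 of the 3 windows of Tsc22d3 and at 4 places over 2 of the 6 windows of Sgk1.

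Levels between genes were compared as TPM, the authors' values scaled for gene length and library size. Sgk1, a kinase related to AKT that acts on ion channels and on muscle growth, was the most abundant of the 9 genes, at between 296.2 and 328.6 TPM in the 6 libraries. Tsc22d3, which encodes the leucine zipper protein GILZ, followed at 155.2 to 241.0 TPM, and Klf9, a zinc finger repressor, at 86.0 to 105.4 TPM. The other 6 genes lay far below these. Mt1 ranged from 31.1 to 46.9 TPM, Zbtb16 from 24.1 to 28.4, Nr3c1 from 23.7 to 26.8, Mt2 from 15.9 to 23.7, Fkbp5 from 15.5 to 21.7 and Ddit4 from 9.04 to 11.5. In this order the ranges over all 6 libraries overlapped for Zbtb16 and Nr3c1 and for Mt2 and Fkbp5. Within the groups, Zbtb16 and Nr3c1 overlapped in Con, whereas in EX Zbtb16 lay above Nr3c1, and Mt2 and Fkbp5 overlapped in EX, whereas in Con Mt2 lay above Fkbp5.

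**Figure D1:**
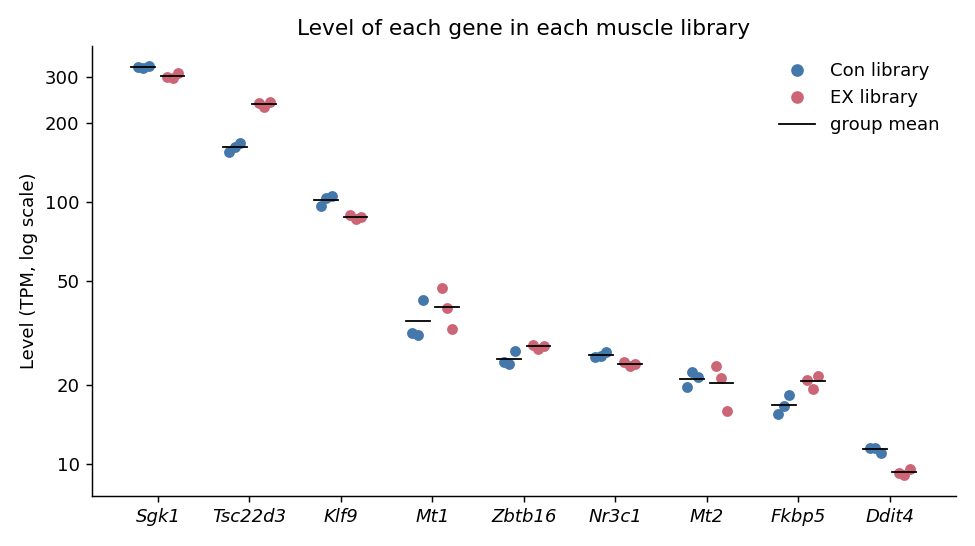
Level of the 9 genes in TPM on a log scale, with 1 point per library (3 Con, 3 EX) and a line at each group mean. Sgk1 and Tsc22d3 lie above 150 TPM in every library and Ddit4 lies lowest, at 9.04 to 11.5 TPM.

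The groups were compared on CPM, the counts scaled by TMM normalization to a common library size, with edgeR's quasi-likelihood test and Benjamini-Hochberg adjustment over all 10883 genes. The 9 genes did not move together. Tsc22d3, Fkbp5 and Zbtb16 rose in EX muscle, Klf9 fell, and Ddit4, Sgk1, Mt1, Mt2 and Nr3c1 did not pass the threshold of an adjusted p-value under 0.05. That made 4 of 9 genes past the threshold, beside 17.9% of all genes tested, with 3 higher (9.11% of all genes) and 1 lower (8.8% of all genes). Over all genes 991 were higher and 958 lower, and with library totals taken without the 20 most abundant genes 772 were higher and 1259 lower, while the calls of the 9 genes were the same. The values of the groups did not overlap for 5 of the 9, beside 33.7% of all genes, with EX above Con for 3 (16.7% of all genes) and below it for 2 (16.9%). The median log2 fold change of the 9 genes was 0.04, beside -0.00090 for all genes tested, and without EX replicate 3 it was 0.18. The 9 genes were listed with results of these data known, so these shares describe them only.

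**Figure D2:**
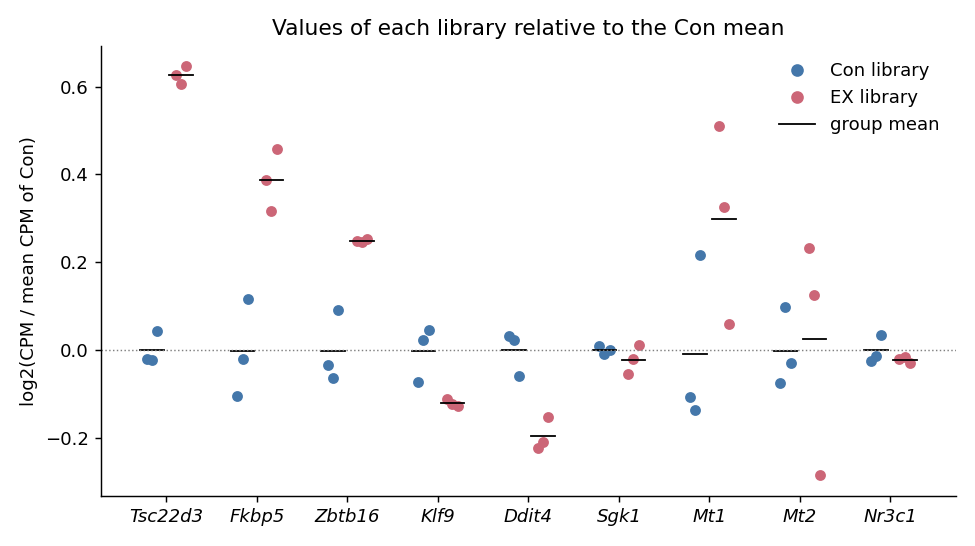
CPM of each library as the log2 ratio to the mean of the Con libraries, for the 9 genes, with a line at each group mean of these ratios. All EX points of Tsc22d3, Fkbp5 and Zbtb16 lie above all Con points, those of Klf9 and Ddit4 lie below them, and those of Sgk1, Mt1, Mt2 and Nr3c1 overlap with Con.

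Tsc22d3 showed the largest change of the 9 genes. GILZ, its product, restrains inflammatory transcription factors such as NF-kappaB and AP-1, and the gene is among the most direct targets of the receptor. Its level was 219, 218 and 228 CPM in Con replicates 1 to 3 and 342, 338 and 347 CPM in EX replicates 1 to 3. The EX mice were close to one another, and the lowest of them stood far above the highest Con mouse. Tsc22d3 rose 1.54-fold, from a mean of 222 ± 5.80 CPM (SD, n = 3) in Con to 342 ± 4.76 CPM in EX. On the log2 scale this was 0.63 with a standard error of 0.04 (edgeR, adjusted p = 4.4e-13). Of all genes tested, 1.95% had a larger change in either direction. Over the 14 alternative settings its log2 fold change ranged from 0.58 to 0.65.

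Fkbp5 encodes a co-chaperone of HSP90 that lowers the receptor's affinity for the hormone and so closes a negative feedback loop. It measured 37.4, 39.7 and 43.7 CPM in the Con mice and 52.6, 50.2 and 55.3 CPM in the EX mice. The Con mice were spread more widely, but none reached the lowest EX mouse. Fkbp5 rose 1.31-fold, with means of 40.3 ± 3.15 CPM in Con and 52.7 ± 2.59 CPM in EX. The log2 value was 0.39 with a standard error of 0.06 (edgeR, adjusted p = 1.4e-05). The log2 fold change ranged from 0.31 to 0.45 over the alternatives.

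Zbtb16, which encodes the zinc finger factor PLZF, had 121, 118 and 132 CPM in Con and 147.1, 146.7 and 147.4 CPM in EX. The EX values were nearly equal, with a coefficient of variation of 0.232% where counting alone would give about 2.18%, and all 3 lay above the Con values. Zbtb16 rose by 0.25 in log2 units with a standard error of 0.04 (edgeR, adjusted p = 0.000123), between means of 124 ± 7.18 CPM in Con and 147.1 ± 0.341 CPM in EX. Under the alternatives the adjusted p lay between 1.0e-05 and 0.0495, the latter with limma on log2(FPKM + 0.1).

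Klf9 moved the other way. KLF9 represses transcription at GC-rich sites, is induced by glucocorticoids and thyroid hormone, and varies over the day in many tissues. Con mice had 271, 289 and 294 CPM and EX mice 263, 262 and 260.4 CPM, so the highest EX value lay just under the lowest Con value. Klf9 fell by 0.12 on the log2 scale (standard error 0.04, adjusted p = 0.0269), from 285 ± 12.2 to 262 ± 1.51 CPM. The size of the change moved little when 1 library was left out, between -0.10 and -0.16, but the call was lost in 5 of these 6 fits. The adjusted p was 0.102 without Con replicate 2, 0.110 without Con replicate 3, 0.0574 without EX replicate 1, 0.0763 without EX replicate 2 and 0.110 without EX replicate 3. With each of these 5 libraries left out in turn, 0 of the 9 genes fell. Without Con replicate 1 the adjusted p was 0.00080.

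Ddit4 encodes REDD1, a stress protein that turns down mTOR complex 1. It was the least abundant of the 9 genes by TPM, with 142 to 167 counts per library. The Con mice had 10.6, 10.6 and 9.99 CPM and the EX mice 8.92, 9.01 and 9.36 CPM. Here too the groups did not overlap, with EX below Con. The log2 fold change was -0.19 with a 95% interval from -0.40 to 0.01 (adjusted p = 0.188), which did not pass the threshold. On the FPKM scale, where the median of all genes was -0.06, Ddit4 passed with limma on log2(FPKM + 0.1) at -0.25 (adjusted p = 0.0232).

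**Figure D3:**
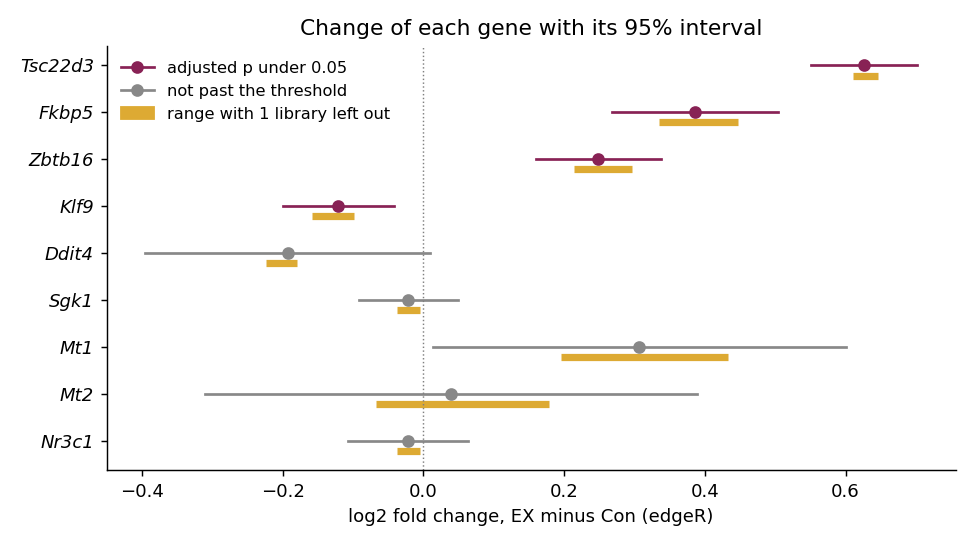
Log2 fold change (EX minus Con) of the 9 genes from edgeR with its 95% interval, and under it the range of the value when each of the 6 libraries was left out in turn. The intervals of Tsc22d3, Fkbp5 and Zbtb16 lie well above 0, that of Klf9 lies below 0, and those of Sgk1 and Nr3c1 are narrow and span 0.

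For Sgk1 and the receptor gene, the CPM values held the change to a narrow range around 0. Sgk1 had 473, 467 and 469.6 CPM in Con and 452, 463 and 474 CPM in EX, and the groups overlapped. Its log2 fold change was -0.02 with a 95% interval from -0.09 to 0.05 (adjusted p = 0.724). In TPM all 3 EX values of Sgk1, between 296.2 and 309.5, lay below the Con values of 324.1 to 328.6. With limma on log2(FPKM + 0.1) its change was -0.08 (adjusted p = 0.147), where the median of all genes tested was -0.06.
Nr3c1 had 105.0, 106 and 109 CPM in Con and 105.4, 106 and 105 CPM in EX. Its log2 fold change was also -0.02, with an interval from -0.11 to 0.06 (adjusted p = 0.770). In TPM the EX values of Nr3c1, between 23.7 and 24.4, also lay below the Con values of 25.5 to 26.8. With limma on log2(FPKM + 0.1) its change was -0.08 (adjusted p = 0.288), beside the same median of -0.06 for all genes tested.

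The metallothioneins were the least precisely measured, since their short transcripts gave 67 to 117 counts per library for Mt1 and 43 to 62 for Mt2. At these depths counting alone gives a coefficient of variation of about 10.5% for Mt1 and 13.8% for Mt2. Mt1 had 4.79, 4.69 and 6.00 CPM in Con and 7.35, 6.47 and 5.38 CPM in EX, where EX replicate 3 fell below the highest Con mouse. Its log2 fold change was 0.31 with a 95% interval from 0.01 to 0.60, which is not adjusted for the number of genes (edgeR, adjusted p = 0.143). Mt2 had 3.14, 3.55 and 3.25 CPM in Con and 3.90, 3.61 and 2.72 CPM in EX, so the EX mice held both its highest and its lowest value. The change of Mt2 was 0.04 with an interval from -0.31 to 0.39 (adjusted p = 0.907), and its sign differed between alternatives. Both genes were highest in EX replicate 1, and among the EX mice both were lowest in EX replicate 3. Without EX replicate 3 the change was 0.42 for Mt1 and 0.18 for Mt2, and without EX replicate 1 it was 0.20 for Mt1 and -0.07 for Mt2. None of these passed the threshold.

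For all 9 genes the deposited counts were whole numbers in every library. The length that counts and FPKM together imply differed between the groups by less than 1% for 8 genes, and by 2.73% for Mt1. Each value in CPM was also compared by an exact permutation test over mice, two-sided, which gave p = 0.1 for the 5 genes without overlap. That is the smallest p that 3 mice against 3 allow.

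The likeness of 2 genes was described by Pearson's r of log2 CPM over the 6 libraries, which share their group and depth, so it is given with no p. The 3 genes most like Fkbp5 of 10882 others were Eif5b (r = 0.997), Xrcc5 (r = 0.993) and Lias (r = 0.993). Eif5b encodes a translation initiation factor, Xrcc5 the Ku80 subunit of DNA repair and Lias the enzyme that makes lipoic acid. Of the other glucocorticoid-induced genes, Zbtb16 ranked 109th (r = 0.965) and Tsc22d3 163rd (r = 0.955), whereas r was -0.66 for Klf9 and -0.93 for Ddit4. These values include the difference between the groups, and over the 3 Con libraries alone r with Fkbp5 was 0.89 for Klf9 and -0.96 for Ddit4. In Con alone it was 0.91 for Tsc22d3, 0.84 for Zbtb16 and 0.98 for Nr3c1, which had -0.24 over the 6 libraries. The genes most like Mt2 were Glud1 (r = 0.992), Ppil2 (r = 0.990) and Eps8l2 (r = 0.966), and Mt1 ranked 986th (r = 0.523), with r = -0.34 over the 3 Con libraries alone. Sgk1 had r = -0.86 with Mt2.

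Other genes known to be induced by glucocorticoids, listed from general knowledge of the response, also went both ways. This list and those below were made with earlier results of these data known, so their counts describe them only. Of 34 such genes 31 passed the filter, and 6 rose and 11 fell, beside 9.11% and 8.8% of all genes tested. Their median log2 fold change was -0.11. Without EX replicate 1, 7 fell.
Among the increases, Mstn, the muscle growth inhibitor myostatin, had means of 131 ± 6.03 CPM in Con and 186 ± 5.09 CPM in EX, so that it rose by 0.51 in log2 units (edgeR, adjusted p = 6.15e-10). Ucp3, a mitochondrial carrier, rose by 0.49 (adjusted p = 4.8e-09). Glul, glutamine synthetase, rose by 0.46 (adjusted p = 5.55e-10). The others were Irs2 (0.39), an adaptor of insulin signalling, Dusp1 (0.26), a phosphatase of MAP kinases, and Cdkn1a (0.27), a cell cycle inhibitor that was past the threshold in 2 of the 14 alternatives.
On the lower side, Cited2, a coregulator that competes for CBP and p300, fell to 74.6 ± 1.17 CPM against 131 ± 0.729 CPM in Con, with a log2 value of -0.81 (adjusted p = 2.8e-14). The ubiquitin ligases of muscle breakdown fell too, Trim63 by 0.30 from 478 ± 16.4 to 388 ± 17.6 CPM and Fbxo32 by 0.18 from 664 ± 5.15 to 586 ± 7.89 CPM. Pdk4, the kinase that switches off pyruvate dehydrogenase, fell by 0.19. Zfp36, which destabilises inflammatory mRNAs, fell by 0.42, Cebpd by 0.39, Gpx3 by 0.34 and Per1, a clock gene with a known response element, by 0.17. Mertk, Sesn1 and Tgm2 completed the decreases and lost the call in at least 4 alternatives each. Klf15, a further direct target in muscle, had a log2 fold change of -0.14 that did not pass (adjusted p = 0.0633) and was past the threshold in 5 of the 14 alternatives. Of the genes under the filter, Lcn2 had 1 to 9 counts per library, Rasd1 3 to 13 and Hif3a 35 to 46.

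**Figure D4:**
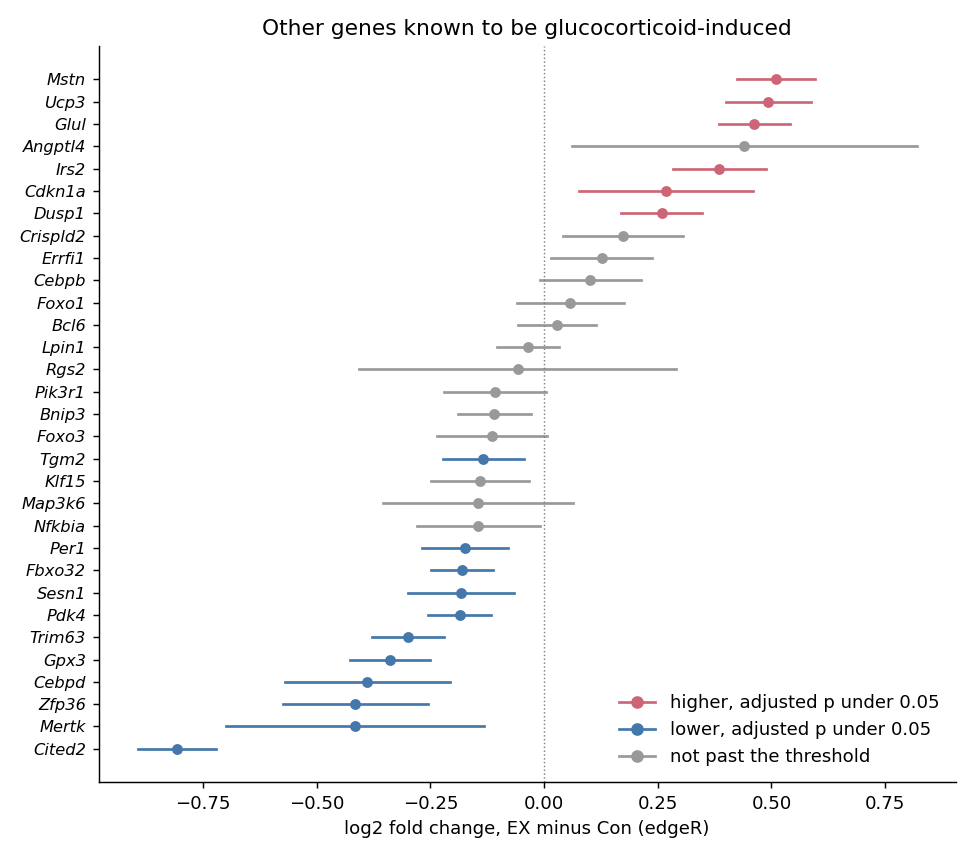
Log2 fold change (EX minus Con) of the 31 tested genes of the list of other glucocorticoid-induced genes, from edgeR with 95% intervals. The values run from -0.81 for Cited2 to 0.51 for Mstn, with 6 genes past the threshold above 0 and 11 below it.

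The machinery around the receptor was taken as 25 genes of its chaperones, the enzymes that activate the hormone, its export and the coregulators. All 25 were tested, and 11 rose and 6 fell, beside 9.11% and 8.8% of all genes tested. With limma on FPKM and without EX replicate 2, 7 of them rose. Over the 14 alternatives 1 to 6 fell, with the lowest counts for DESeq2 (1), without EX replicate 3 (1), without Con replicate 2 (2) and without EX replicate 2 (2).
Of the 12 chaperones and co-chaperones in the list, which hold the receptor ready for hormone or act on its folding, 7 rose, and Stip1, Ptges3, St13, Bag1 and Stub1 did not pass the threshold (log2 fold changes of -0.02 to 0.10). Hspa1a had 6.73 ± 1.34 CPM in Con and 14.7 ± 0.388 CPM in EX and rose by 1.11 (adjusted p = 2.1e-08), although reads of this gene can be shared with a near-identical copy. Dnajb1, its J-domain partner, rose by 0.88 (adjusted p = 1.7e-08). Both cytosolic HSP90 genes rose, Hsp90aa1 by 0.45 and Hsp90ab1 by 0.21, as did Hspa8 by 0.28. Fkbp4, the co-chaperone that competes with FKBP5 and favours transport of the receptor to the nucleus, rose by 0.15 (adjusted p = 0.00958), a call kept in 11 of the 14 alternatives.
Hsd11b1, which turns inactive 11-dehydrocorticosterone into corticosterone inside cells, had 8.79 ± 0.292 CPM in Con and 7.31 ± 0.577 CPM in EX (log2 fold change -0.27, adjusted p = 0.0995). H6pd, which supplies its cofactor, rose by 0.23 (adjusted p = 0.000551). Coregulators went both ways. Nrip1, a corepressor, rose by 0.46, Ncoa1 by 0.16 and Smarca4 by 0.13, whereas Ncoa2 fell by 0.19, Ncoa3 by 0.17, Med1 by 0.17 and the acetyltransferase genes Ep300 and Crebbp by 0.19 and 0.17. Ep300 kept its call in 13 of the 14 alternatives, Ncoa3 in 11, Med1 in 8, Ncoa1 in 6 and Smarca4 in 1. Of the 13 alternatives in which they were tested, Ncoa2 kept its call in 9 and Crebbp in 4.

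Close relatives of the 9 genes were listed to see whether a change was shared within a family. Of 10 relatives tested, 3 rose and 1 fell, beside 9.11% and 8.8% of all genes. With limma on either FPKM scale 1 rose and 1 fell. Without EX replicate 1, and also without EX replicate 3, 2 rose and 0 fell, and without Con replicate 3, 2 fell. Ddit4l, the muscle-rich relative of Ddit4, rose by 0.29 (adjusted p = 4.99e-07), with 331 ± 5.66 CPM in Con and 405 ± 5.55 CPM in EX. Tsc22d1 fell by 0.13 (adjusted p = 0.0203), opposite to Tsc22d3. Fkbp1a rose by 0.20 and Fkbp3 by 0.17, calls kept in 12 and 10 of the 14 alternatives. The mineralocorticoid receptor gene Nr3c2, whose product also binds corticosterone, had a log2 fold change of -0.21 (adjusted p = 0.0881), and that of Klf13 was 0.11 (adjusted p = 0.114). Sgk3 stood at -0.23 (adjusted p = 0.115), and Sgk2 and Zbtb32 had at most 3 counts in any library. Mt3 had 0.38 to 0.75 CPM, and Mt4 was not analysed here.

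For the metal branch, 7 of 8 listed genes were tested and none passed the threshold in edgeR, beside 17.9% of all genes, with Mtf1 at 0.10 (adjusted p = 0.332) and the zinc exporter Slc30a1 at -0.10 (adjusted p = 0.390). At p under 0.05 before adjustment there was 1, Gclc, and by the other fits at most 1 was called. Slc30a10 had 0 to 2 counts. Among 10 partners of REDD1 and SGK1, 3 rose and 1 fell, beside the same shares of all genes, 9.11% and 8.8%. Without EX replicate 3, 1 rose, and with each of the 6 libraries left out in turn 0 fell. Deptor, an inhibitory part of the mTOR complexes, rose by 0.37 (adjusted p = 7.6e-08), Nedd4l, a ubiquitin ligase that SGK1 phosphorylates, by 0.18 and Rheb, the activator of mTOR complex 1, by 0.15. Pdpk1, the kinase that activates SGK1, fell by 0.15. Of the 14 alternatives, Deptor kept its call in all, Nedd4l in 8, Rheb in 4 and Pdpk1 in 3. With DESeq2 and with both limma fits 1 of the 10 rose and 0 fell.

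**Figure D5:**
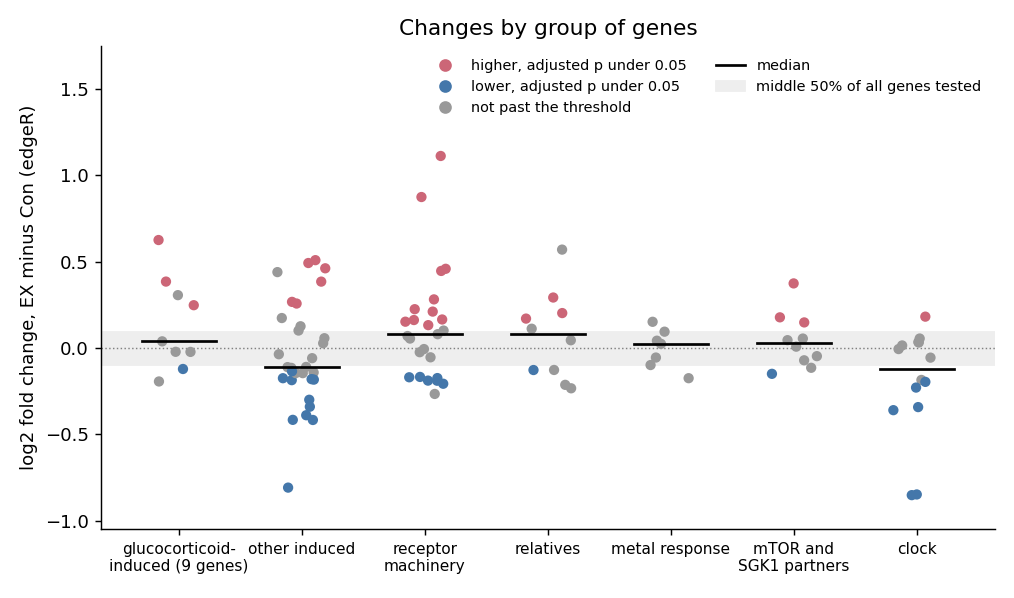
Log2 fold change (EX minus Con, edgeR) of each tested gene by group, with the group median as a line and the middle 50% of all genes tested (-0.10 to 0.10) as a grey band. The median lies at -0.11 for the other induced genes, at 0.08 for the receptor machinery and at -0.12 for the clock genes.

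Clock genes were read beside these results, because glucocorticoid levels and several of the targets follow the time of day. Of 14 tested, 1 rose and 6 fell, beside 9.11% and 8.8% of all genes tested, with Nr1d1 at 348 ± 33.1 CPM in Con and 193 ± 7.81 in EX (log2 fold change -0.85), Ciart also at -0.85, Bhlhe40 at -0.36 and Per3 at -0.34. Per2 rose by 0.18, a call kept in 6 of the 14 alternatives. It was lost without Con replicates 1 or 3, without EX replicates 1 or 2, with library totals taken without the 20 most abundant genes, with DESeq2 and with both limma fits, and 0 of the 14 clock genes rose in these. The part of time of day in the changes of Klf9, Per1 and the other targets was not tested.

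The tissue label was checked against markers, whose counts stand beside 9.11% of all genes tested that were higher and 8.8% that were lower. Of 10 muscle fibre genes 5 rose, led by Mylpf (0.30), Acta1 (0.22), Actn3 (0.20) and Tnni2 (0.16), and 2 fell, Mb (-0.14) and Myh1 (-0.09), the latter called in 9 of the 14 alternatives. With both limma fits 3 rose, and 1 fell without Con replicates 2 or 3, without EX replicates 1 or 3 and with the replicate block. The 10 genes summed to between 167114 and 175905 CPM in Con and between 180393 and 190110 in EX. Markers of other cells moved with the groups as well. Macrophage markers rose for 6 of 7 tested genes (sum over 10 genes 42.3 to 47.6 CPM in Con, 77.3 to 85.0 in EX), led by C1qc (1.26), C1qb (1.03), Csf1r (0.93) and C1qa (0.89). The 3 under the filter, Adgre1 (0.60), Itgam (0.30) and Cd14 (0.08), were not called in the fit without a filter. Tendon markers rose for 6 of 9 (439 to 457 against 678 to 709 CPM), led by Tnc (1.04), Col1a1 (0.86), Tnmd (0.85) and Fmod (0.79). Comp (0.07), Kera (0.07) and Scx (0.05) did not pass the threshold. Most of the tendon sums came from Col1a2 (means of 174 CPM in Con and 266 in EX) and Col1a1 (86.4 and 157). Adipocyte markers rose for 5 of 8, led by Retn (1.55), Cidec, Cfd (1.29) and Adipoq (1.19), and fell for 1, Lpl. Without Con replicate 1, and with library totals taken without the 20 most abundant genes, 2 fell. Counts per library were 7 to 37 for Retn, 15 to 59 for Adipoq, 19 to 87 for Cidec and 140 to 412 for Cfd. The adipocyte sums were 1119 to 1167 CPM in Con and 1121 to 1122 CPM in EX. Most of these sums came from Lpl (means of 484 CPM in Con and 367 in EX), Plin4 (404 and 498) and Fabp4 (228 and 214). Endothelial markers fell for 6 of 10 (984 to 1018 against 865 to 885 CPM), led by Flt1 (-0.27), Cdh5 (-0.26), Tie1 (-0.22) and Egfl7 (-0.18). No marker was at 0 in all libraries. In bulk tissue, fewer cells of a type and less RNA per cell cannot be told apart, and the part of these cells in the changes of Tsc22d3, Fkbp5 and Zbtb16 was not tested.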

How the data were processed

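Hind leg muscle RNA was sequenced with 1 library per mouse. The authors filtered the reads and aligned them with HISAT to GRCm39, according to the paper, whereas the submitters' processing notes list GRCm38.p6, cutadapt, featureCounts and MultiQC. The authors deposited expected counts, FPKM and TPM per gene and library. The 6 columns of group means were not used. Counts were rounded, and library totals ranged from 13845361 to 16240420. Fold changes came from edgeR 4.0.16 (glmQLFit, glmQLFTest, TMM) in R 4.3.3 for genes averaging 1 FPKM or more, with standard errors implied by its F statistic. DESeq2 1.42.0 and limma 3.58.1 on log2(FPKM + 0.1) and log2(FPKM + 1), which understates changes of low genes, were alternatives. The other alternatives were scaling, filters, a replicate block and leaving out each library. The fits were also run on simulated counts. These gave all genes the same variability and held only planted changes larger than that of Zbtb16, so smaller changes were not checked. The 9 genes and all lists were chosen with earlier results of these data known. Named are the 9 genes, the 4 largest changes past the threshold per list, genes near 0 and the 3 genes most like Fkbp5 and Mt2. Other list genes were named after their values were seen. The sources do not give the batch of library preparation. P-values of the fits rest on the spread between these 6 mice. In each fit a gene's variance estimate was drawn towards a trend over all genes tested.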

Additional observations from a re-analysis of the deposited data

How the results depend on the processing

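The calls of Tsc22d3, Fkbp5 and Zbtb16 held under all 14 alternatives, so the number of the 9 genes that rose was 3 in each. The number that fell was 2 with limma on log2(FPKM + 0.1) and on log2(FPKM + 1), where Ddit4 was added, and 0 to 1 with 1 library left out. The median of the 9 genes ranged from -0.0045 to 0.18 with 1 library left out. The change of Mt2 turned to -0.042 with limma on log2(FPKM + 0.1), to -0.038 on log2(FPKM + 1), to -0.067 without EX replicate 1 and to -0.0042 without EX replicate 2, and the cause was not tested. For the other induced genes, 7 to 11 fell with 1 library left out. For the receptor machinery, 7 rose with both limma fits and 7 to 11 with 1 library left out, while 1 fell with DESeq2 and 1 to 5 with 1 library left out. Over all genes, DESeq2 called 643 higher and 585 lower and limma 411 higher on each FPKM scale, against 991 and 958 in edgeR, and limma called 1037 lower on log2(FPKM + 0.1) and 1032 on log2(FPKM + 1). The cause was not tested. Mice with the same number did not deviate together (r = -0.09, -0.06 and -0.13 for numbers 1 to 3). With the number as a replicate block, 3 of the 9 genes rose and 1 fell, as without it. Depth limited Mt1, Mt2 and Ddit4, and counts cover counting error only.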
